A study of Mus musculus with 2 samples.

Results

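Among the autosomal CpGs of the mouse epiblast, 128 had strand levels that lay 75 or more points apart, with one strand mostly methylated and the other mostly unmethylated. They were chosen by 3 conditions, namely at least 8 reads on each strand, at most 26 reads in total, and that gap between the level of the plus and of the minus strand. The first 2 conditions left 321151 eligible CpGs, which is 1.58% of the 20383623 autosomal CpGs in the table, and the 128 are 0.0399% of these. The gap chose the CpGs, so their strand levels are given as a description and support nothing. The DNA came from the epiblast of wild-type female (XX) C57Bl6/J embryos at embryonic day 6.5, dissected by hand after natural matings without culture of the embryos. The labels list 2 samples in this single group, and the counts are in 1 table that does not separate them, so the values below carry no error between replicates, and no comparison between conditions exists. Intervals in parentheses are 95% intervals that cover counting error only, exact Clopper-Pearson for shares and exact Poisson for numbers. Coordinates are those of mm10 and give both cytosines of the CpG.

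A CpG reads CG on either strand, so both strands can carry a methyl group at the same site. When DNA is copied, the new strand is at first unmethylated, and the maintenance methyltransferase DNMT1, guided by UHRF1, restores the mark opposite a methylated parent strand. The de novo enzymes DNMT3A and DNMT3B act on DNA that lacks the mark, and they are active in the epiblast, a tissue of rapidly dividing cells. A site with the mark on one strand only is called hemimethylated. Bisulfite sequencing reads each strand from separate single-stranded fragments, and the counts do not link a plus strand read with the minus strand read of the same DNA molecule. A difference in level between strands is therefore a difference between 2 sets of reads.

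At the median autosomal CpG 6 reads were counted, and the strands had nearly the same overall level. The plus strand was methylated in 66.2% of its reads and the minus strand in 66.4%. Over the eligible CpGs the levels were 44.6% and 44.7%. Eligible CpGs had been selected for depth and included many in unmethylated CpG-dense DNA.

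The 128 CpGs outnumbered what independent reads at 1 level would give. If each strand is drawn from a binomial distribution at the pooled level of its own CpG and at its own depth, 73.5 CpGs would pass the gap. The observed number of 128 (107 to 152) was 1.74 times that expectation (1.45 to 2.07). Reads were taken as independent, and repeated reads of a fragment or few starting molecules would raise the expectation. Their part in the excess was not tested.

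The excess over the binomial expectation was present at smaller gaps as well. At 25 points or more, 47930 CpGs were observed and 41474 expected, a ratio of 1.16 (1.15 to 1.17). At 50 points the numbers were 3756 and 2927, a ratio of 1.28 (1.24 to 1.32). At 60 points they were 886 and 616, a ratio of 1.44 (1.34 to 1.54). The ratio was 2.19 (1.43 to 3.22) at 80 points, from 26 CpGs. At 90 points, 2 CpGs were observed and 1.06 expected, which is too few to place the ratio. No eligible CpG had a gap of 100 points.

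**Figure D1:**
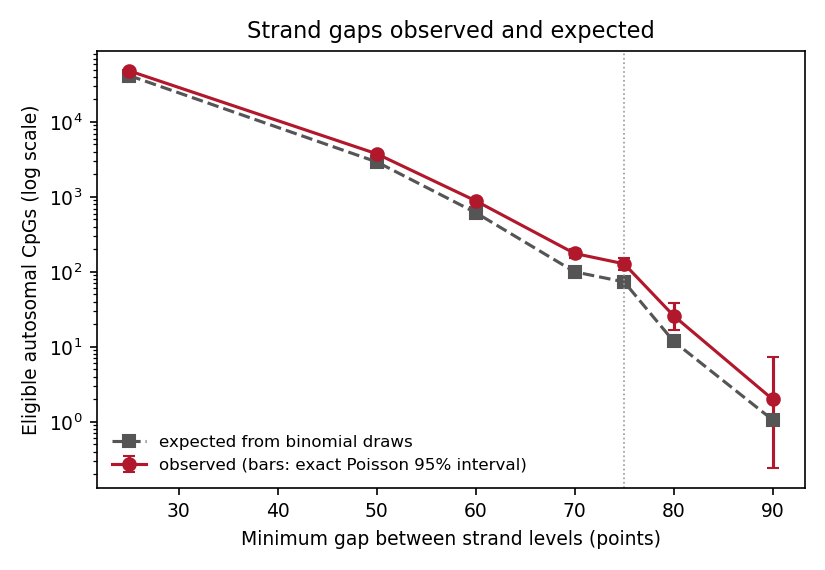
Number of eligible autosomal CpGs (log scale) whose strand levels lay at least the given number of points apart, observed (circles, exact Poisson 95% intervals) and expected from binomial draws at the pooled level (squares). The observed number lies above the expected one at each gap shown, 128 against 73.5 at the dotted line at 75 points.

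The strand contrast was called at no single CpG at this depth. In Fisher's exact test of plus against minus counts, two-sided, over all 321151 eligible CpGs with Benjamini-Hochberg adjustment, 0 CpGs (0%) passed an adjusted p of 0.05. At an unadjusted p under 0.05 there were 4188. The smallest p was 4.42e-05, at the CpG in Spaca7, and the 128 CpGs ranged up to 0.0101. These are p-values of the contrast that chose the CpGs and are given for scale only. With 13 reads on each strand and complete separation, the smallest p that this depth allows is 1.92e-07. Times the number of tests it is 0.0618, so a CpG alone at that p would not pass. Several CpGs at that p could pass together, because the adjustment divides by rank. The name methylated on one strand thus describes the counted reads at these sites.

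The levels themselves sat near the edge of the rule. The higher strand had a median of 100% (range 75% to 100%), and the lower strand a median of 13.9% (0% to 25%). The higher strand was fully methylated at 74 of the 128 CpGs and the lower strand fully unmethylated at 20, and no CpG had both. A gap of exactly 75 points was found at 56 CpGs, among them 20 with 8 of 8 reads methylated on one strand and 2 of 8 on the other, and 7 with 7 of 8 against 1 of 8. Just inside the threshold, from 75 to under 80 points, lay 102 CpGs, and just outside, from 70 to under 75 points, lay 48. Small read numbers allow few fractions, and a gap of 75 points is among them.

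**Figure D2:**
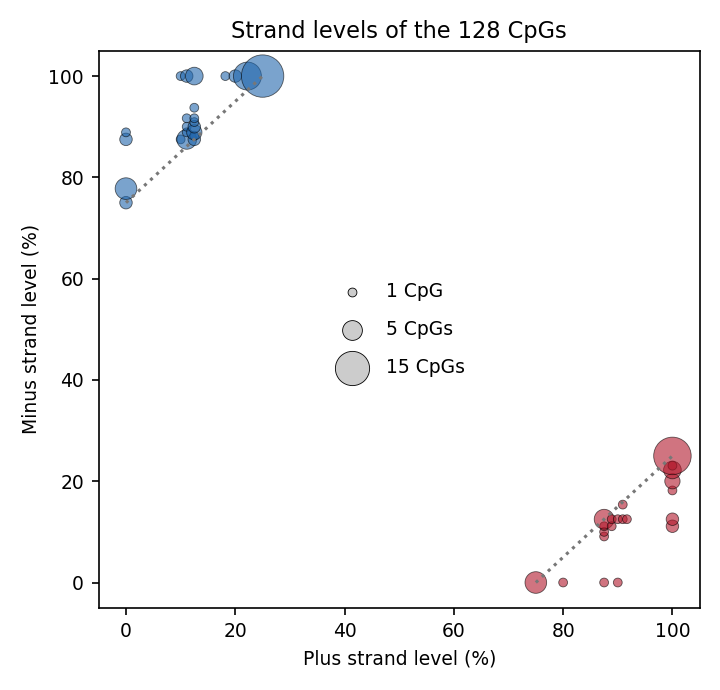
Plus strand level against minus strand level (%) of the 128 CpGs, with the area of a point showing how many CpGs share the same pair of levels and the dotted lines the gap of 75 points. The 54 CpGs methylated on the plus strand are at the lower right and the 74 methylated on the minus strand at the upper left, with the largest points on the dotted lines.

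Depth was low within the allowed range. The total had a median of 17 reads (16 to 25), compared with 19 over the eligible CpGs. One strand or both had exactly 8 reads at 108 of 128 CpGs (84.4%), compared with 54.1% of the eligible ones. With 16 to 17 reads, 75 CpGs passed against 48.1 expected, a ratio of 1.56 (1.23 to 1.96). With 18 to 20 reads there were 44 against 21.6, a ratio of 2.04 (1.48 to 2.73). With 21 to 23 reads there were 6 against 3.13, and with 24 to 26 reads 3 against 0.667. The ratios of these deeper classes, 1.92 (0.704 to 4.18) and 4.50 (0.927 to 13.1), have wide intervals that include 1.

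The strand that carried the methylation was not used by the rule. It was the plus strand at 54 CpGs (0.0168% of the eligible ones) and the minus strand at 74 (0.023%). The share of the plus strand was 42.2% (33.5% to 51.2%), and its interval includes 50%. Where the CpG lay in 1 protein-coding gene of known strand, the methylated strand was the coding strand of that gene at 18 of 48 CpGs, or 37.5% (23.95% to 52.6%).

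The widest gaps were seen in and between genes of different kinds. Gaps above 87.5 points were found at 7 sites, and 9 more tied at 87.5 points, of which the 3 with the most reads are described with them. In Coq5, a methyltransferase gene of coenzyme Q synthesis, 9 of 10 plus strand reads and 0 of 9 minus strand reads were methylated (chromosome 5, 115286706 to 115286707), a gap of 90 points. The same gap was found in a noncoding gene on chromosome 18, with 1 of 10 and 8 of 8 reads. The neighbors of the Coq5 site showed no such contrast. The other CpGs within 250 bp of it were methylated in 68.2% of 44 plus strand reads and in 62.1% of 58 minus strand reads.

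In Spaca7, which encodes a protein of the sperm acrosome, 1 of 9 plus and 12 of 12 minus strand reads were methylated (chromosome 8, 12574896 to 12574897), a gap of 88.9 points. In the copine gene Cpne5 the contrast was reversed, with 9 of 9 plus and 1 of 9 minus strand reads methylated (chromosome 17, 29204155 to 29204156). Neither site had a like contrast around it: within 250 bp the levels were 68.8% and 75% at Spaca7 and 90.2% and 79.3% at Cpne5, plus strand first. Septin9, a gene of the septin cytoskeleton, had 1 of 8 plus and 11 of 11 minus strand reads methylated (chromosome 11, 117204372 to 117204373), a gap of 87.5 points. Here CpGs within 50 bp leaned the same way, with 4 of 13 plus and 19 of 22 minus strand reads methylated.

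The other 5 of these 10 sites lay outside protein-coding genes. On chromosome 8 the site at 87650089 to 87650090 had 1 of 9 plus and 9 of 9 minus strand reads methylated. Its surroundings were methylated on both strands, at 80.4% and 83.0%. The site at 120191245 to 120191246 of the same chromosome had 8 of 8 plus and 1 of 9 minus strand reads methylated. Its surroundings followed in part, with 67.5% of 120 plus strand reads and 42.2% of 116 minus strand reads. On chromosome 11 the site at 116900974 to 116900975 had 0 of 8 and 8 of 9 reads methylated in surroundings of 22.7% and 30.3%. The last pair comprised 1 of 8 and 11 of 11 reads on chromosome 6 (51408656 to 51408657), and 10 of 10 and 1 of 8 on chromosome 8 (116844777 to 116844778), in a noncoding gene.

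CpG density was compared with that of all eligible CpGs and with the 50167 eligible CpGs whose pooled level, like that of the 128, lay within 28.6% to 68.4%. The second background matters because a gap of 75 points cannot arise at CpGs near 0% or 100%. The 128 CpGs had a median of 8 other CpGs within 250 bp (interquartile range 4.75 to 11). The eligible CpGs had 13, and those in the same range of level had 8. Within 100 bp the medians were 3, 6 and 3, and within 1 kb they were 24, 41 and 27. The sites were thus sparser in CpGs than eligible CpGs in general and had the same median as eligible CpGs of like level within 100 and 250 bp.

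**Figure D3:**
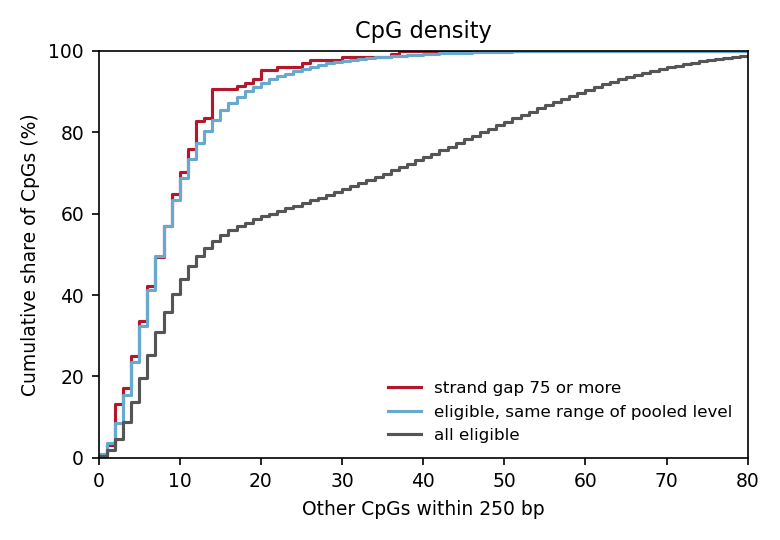
Cumulative share of CpGs (%) by the number of other CpGs within 250 bp, for the 128 CpGs, the 50167 eligible CpGs in the same range of pooled level and all 321151 eligible CpGs. The first 2 curves run close together with medians of 8, and the curve of all eligible CpGs reaches its midpoint at 13.

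At least 20 other CpGs lay within 250 bp at 9 of the 128 sites (7.03%), compared with 41.4% of eligible CpGs and 8.85% of those of like level. Binomial draws gave 5.80 such sites (ratio 1.55, 0.709 to 2.94). The densest was in Arhgap23, with 37 other CpGs. It had 1 of 8 plus and 9 of 10 minus strand reads methylated (chromosome 11, 97463642 to 97463643). The surrounding CpGs were low on both strands, at 26.2% and 22.9%. The ratio of observed to expected was 1.74 with 0 to 4 other CpGs (32 sites), 1.69 with 5 to 9 (51 sites) and 1.89 with 10 to 19 (36 sites), so it varied little with density.

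Most sites lay in methylated surroundings. The level of the other CpGs within 250 bp could be taken at 117 sites, where they held at least 20 reads, and its median was 71.4%. For eligible CpGs it was 52.5%, and for those of like level 66.3%. The surrounding level was over 60% at 79 sites, from 20% to 60% at 36 and under 20% at 2. Against the binomial expectation the ratios were 1.72 (1.36 to 2.14) over 60% and 2.00 (1.40 to 2.77) from 20% to 60%.

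Of the 2 sites in surroundings under 20%, one, on chromosome 2 in a noncoding gene (19432156 to 19432157), had 0 of 9 plus and 7 of 8 minus strand reads methylated among 36 other CpGs. The other lay on chromosome 7 outside genes (79579147 to 79579148), with 6 of 8 plus and 0 of 13 minus strand reads methylated. Around the second site the plus strand was also higher within 50 bp, with 15 of 30 reads against 1 of 25.

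**Figure D4:**
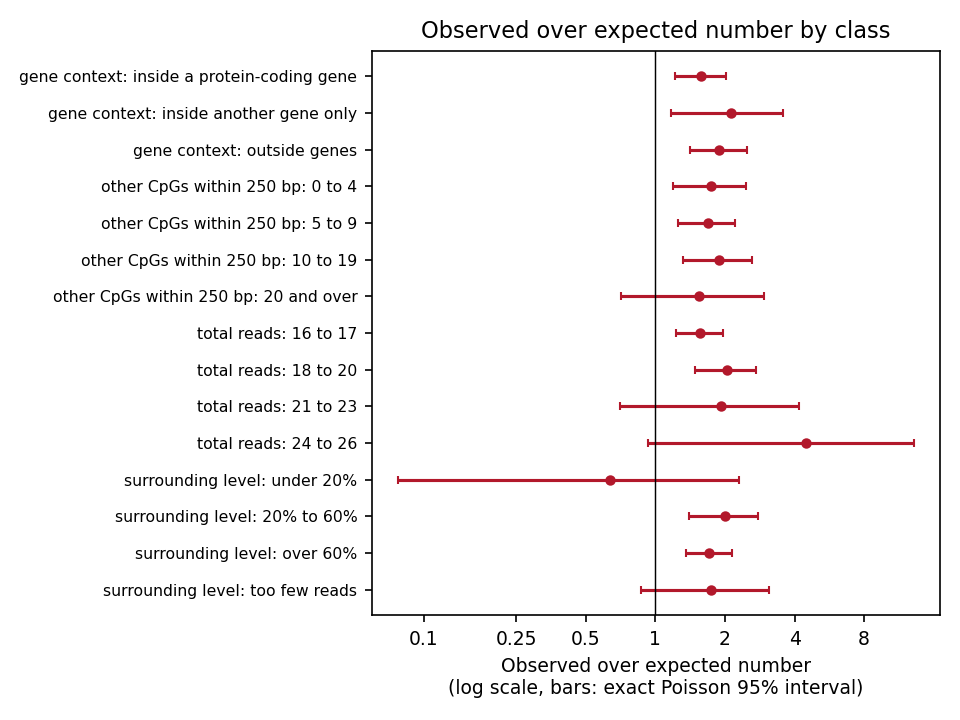
Observed over expected number of CpGs with a gap of 75 points or more (log scale, exact Poisson 95% intervals) by gene context, CpG density, total reads and level of the other CpGs within 250 bp. The ratio lies between 1.55 and 2.13 in each class except 24 to 26 total reads (4.50, 3 CpGs) and surroundings under 20% (0.636, 2 CpGs), and the vertical line marks a ratio of 1.

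Whether neighboring CpGs shared the contrast was measured by adding the reads of the other CpGs at fixed distances and taking the level on the methylated strand of each site minus the level on its other strand. These CpGs were not used by the rule. At 1 to 10 bp the levels were 75.6% of 344 reads and 44.8% of 319 reads, a difference of 30.8 points (23.7 to 37.9). At 11 to 50 bp the difference was 14.3 points (10.6 to 17.9), and at 51 to 100 bp it was 4.19 points (0.763 to 7.62). Intervals of differences are normal approximations for read counts taken as independent. CpGs this close can lie on the same reads, and the part of shared reads in the difference was not tested.

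Beyond 100 bp the difference was small or reversed. It was -4.81 points (-7.63 to -2.00) at over 100 to 200 bp, 1.20 points (-0.712 to 3.11) at over 200 to 500 bp and 0.350 points (-1.22 to 1.92) at over 500 to 1000 bp. At none of these 6 distances did the contrast reach 75 points. The sites were selected for that gap and their neighbors were not, so no conclusion is drawn from this.

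A like decay up to 100 bp was seen around eligible CpGs with smaller gaps. Around the 3628 CpGs with a gap of 50 to under 75 points the difference was 23.9 points at 1 to 10 bp, 15.4 at 11 to 50 bp and 3.27 at 51 to 100 bp. Around the 44174 with 25 to under 50 points these differences were 14.5, 9.55 and 2.57 points. At over 100 to 200 bp these groups had -0.478 and -0.0679 points, with intervals that reach positive values. Around all 248326 eligible CpGs with any gap the difference there was -0.0863 points (-0.120 to -0.0528). A negative sign was thus not particular to the 128 sites, whose -4.81 points were larger in size. The cause of this larger reversal was not tested. Over 1 to 50 bp the 128 sites had 17.4 points (14.2 to 20.7) and the group just below the threshold 17.02 (16.4 to 17.6), and these intervals overlap.

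**Figure D5:**
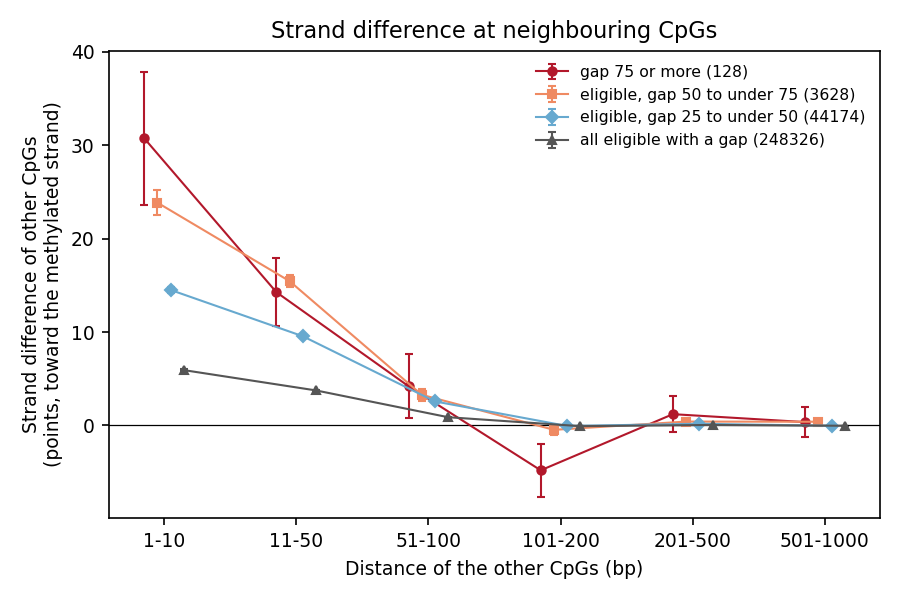
Level of the other CpGs on the methylated strand of a site minus their level on its other strand (points, 95% intervals for counting error) by distance (bp), for the 128 CpGs and for eligible CpGs grouped by the size of their own gap. The difference of the 128 CpGs falls from 30.8 points at 1 to 10 bp to 4.19 points at 51 to 100 bp and stays within 5 points of 0 beyond.

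Taken singly, 82 sites had at least 5 reads on each strand over the CpGs within 50 bp. These neighbors were higher on the methylated strand at 69 of the 82 sites (84.1%, 74.4% to 91.3%) and lower at 12. They were at least 25 points higher at 32 sites, and 75 points higher at 0, a gap for which only the sites were selected. Shares of this kind are not given here for eligible CpGs with smaller gaps, so these counts do not set the sites apart. In the sums over 1 to 50 bp the difference was 17.4 points around the sites. It was 17.02 points around eligible CpGs with a gap of 50 to under 75 points. In Impg1, a gene of the matrix around photoreceptors, 1 of 8 plus and 7 of 8 minus strand reads were methylated (chromosome 9, 80399573 to 80399574), and the neighbors had 5 of 29 and 9 of 12. In Ppard, which encodes a nuclear receptor, 7 of 8 plus and 1 of 10 minus strand reads were methylated (chromosome 17, 28272479 to 28272480), and the neighbors had 27 of 30 and 5 of 12. Both sites had neighbors that leaned with them.

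Other sites stood alone. In Cdh23, a cadherin gene of the hair cells of the inner ear, 8 of 8 plus and 3 of 12 minus strand reads were methylated (chromosome 10, 60487028 to 60487029). Its neighbors leaned the other way, with 12 of 21 plus and 12 of 15 minus strand reads methylated. No other CpG lay within 50 bp at 39 of the 128 sites (30.5%), compared with 13.9% of eligible CpGs and 25.4% of those of like level.

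Clustering at short distances could not be judged from 128 sites. No site had another within 100 bp, 1 kb or 10 kb, so no group of sites within 1 kb exists to describe, and 0 of 128 allows a share of up to 2.84%. Of the other eligible CpGs, 0.0748% had a site within 1 kb and 0.368% within 10 kb. At shares this low 0 of 128 is the likely count, so no conclusion on clustering is drawn from it. The median distance between nearest sites on a chromosome was 3.33 Mb, written in full as 3331846 bp. Within 100 kb of another site were 6 CpGs (4.69%, 1.74% to 9.92%), compared with 3.11% of the other eligible CpGs and 3.45% of those of like level. Within 1000 kb the shares were 21.1%, 20.1% and 21.5%.

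These 6 CpGs formed 3 pairs. The nearest pair, 20330 bp apart on chromosome 7, joined the site at 79579147 with one in the ammonia transporter gene Rhcg (79599477 to 79599478), where 7 of 8 plus and 1 of 8 minus strand reads were methylated. Both were methylated on the plus strand. The growth factor gene Pdgfd held a pair 28829 bp apart with opposite strands, at 2 of 9 and 10 of 10 reads (chromosome 9, 6201676 to 6201677) and at 11 of 11 and 2 of 10 (6230505 to 6230506). Around the second Pdgfd site, other CpGs within 1 kb had a mean of 1.77 reads, the lowest of the 128. Those within 250 bp had 0 plus and 7 minus strand reads. Zfhx3, a zinc finger homeobox gene, held a pair 77823 bp apart, with 2 of 8 and 9 of 9 reads (chromosome 8, 108654970 to 108654971) and 2 of 11 and 8 of 8 (108732793 to 108732794), both methylated on the minus strand. No other protein-coding gene held more than 1 site.

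Sites were found on each of the 19 autosomes, from 1 on chromosome 16 to 13 on chromosome 11. Per 100000 eligible CpGs, the number ranged from 10.4 on chromosome 16 to 74.6 on chromosome 6. Chromosome 6 had 11 sites against 3.53 expected, a ratio of 3.12 (1.56 to 5.58). The intervals of 5 autosomes, chromosomes 6, 8, 11, 18 and 19, lay above 1. All 5 included 1.74, the ratio over all autosomes, so none of these chromosomes stood apart from the rest. Chromosomes are not replicates, and the numbers per chromosome are small.

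By gene context, 64 sites (50%, 41.0% to 59.0%) lay inside a protein-coding gene, 14 only inside another gene, and 50 outside genes. Eligible CpGs were inside protein-coding genes in 70.5% of cases, and eligible CpGs of like level in 55.4%. Outside genes were 39.1% of the sites (30.6% to 48.1%), 23.3% of eligible CpGs and 35.6% of those of like level. Observed over expected was 1.58 (1.22 to 2.02) inside protein-coding genes, 2.13 (1.16 to 3.57) inside other genes only and 1.90 (1.41 to 2.50) outside genes. These intervals overlap. Exons and introns were not separated here.

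None of the sites lay in a promoter window around a listed start. Within 250 bases before to 50 after a RefSeq gene start, 26612 eligible CpGs gave 0 sites. Taking 3 counts as the most that a count of 0 allows, and not a Clopper-Pearson bound, the share was up to 0.0113%. The expectation there was 0.972 sites, so their absence was within counting error. Chromosome 18 had no listed starts and was left out of this count and of distances to starts. Starts were also missing for some genes on other autosomes, among them Rhpn1, Emilin3 and Coq5. The site in Rhpn1 was 317875 bp from the nearest listed start. Sites in promoters of such genes would be missed, and distances can be too long. The median distance to the nearest listed start was 18019 bp, compared with 7897 bp for eligible CpGs and 14443 bp for those of like level. Of 122 sites with a distance, 4 lay within 1 kb of a listed start, against 5.52 expected.

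Besides Ppard and the noncoding gene on chromosome 2, the sites within 1 kb of a listed start were in Ffar2 and Gna15. Ffar2, a receptor for short-chain fatty acids, had 1 of 9 plus and 11 of 12 minus strand reads methylated, 610 bp from a start (chromosome 7, 30819811 to 30819812). Its neighbors within 50 bp leaned the same way, with 8 of 31 and 31 of 50. Gna15, a G protein alpha subunit gene, had 0 of 8 and 7 of 9, 588 bp from a start (chromosome 10, 81523637 to 81523638).

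None of 5 lists of genes held a site. In and within 5 kb of the 97 autosomal genes on lists of DNA methylation enzymes, imprinted genes, loop and replication factors, epiblast and primitive streak genes and germline genes, 1764 CpGs were eligible and 0 were sites. With the same 3 counts as the most that 0 allows, the share was up to 0.170%. At the overall share, 0.703 would have been expected. The lists held from 190 eligible CpGs (germline) to 486 (epiblast and primitive streak), so a lower share than in the rest of the genome was not detectable at this depth.

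The 64 protein-coding genes with a site were of many kinds, and the examples in the next 3 paragraphs were chosen after their values were seen. Signaling and developmental genes had sites on either strand. Gli2, a transcription factor gene of Hedgehog signaling, had 2 of 8 plus and 10 of 10 minus strand reads methylated (chromosome 1, 118916616 to 118916617). In Rspo1, an enhancer of Wnt signaling, the numbers were 1 of 10 and 7 of 8 (chromosome 4, 124991336 to 124991337). The retinoic acid receptor gene Rara had 2 of 8 and 9 of 9 (chromosome 11, 98969781 to 98969782). These 3 were methylated on the minus strand, whereas Cntfr, a cytokine receptor gene, had 6 of 8 plus and 0 of 12 minus strand reads methylated (chromosome 4, 41683159 to 41683160). The LIM cofactor gene Lmo1 also had its methylation on the plus strand, at 7 of 8 against 1 of 8 (chromosome 7, 109145033 to 109145034).

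Tenm2, a teneurin of synaptic adhesion, and Auts2 each had 2 of 8 plus and 8 of 8 minus strand reads methylated (chromosome 11, 36079034 to 36079035, and chromosome 5, 131969187 to 131969188). Shank2, a scaffold of the postsynaptic side, and the ion channel gene Trpm3 each had 2 of 8 and 11 of 11 (chromosome 7, 144103381 to 144103382, and chromosome 19, 22733047 to 22733048). The contactin gene Cntn5 and the delta-catenin gene Ctnnd2 had the opposite pattern, with 8 of 8 plus and 2 of 8 minus strand reads methylated (chromosome 9, 10493532 to 10493533, and chromosome 15, 30373913 to 30373914). All 6 had gaps of exactly 75 points.

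Prxl2a had the highest total of the 128, with 1 of 8 plus and 15 of 17 minus strand reads methylated (chromosome 14, 41010357 to 41010358). Naglu, a lysosomal enzyme that degrades heparan sulfate, had 10 of 11 and 2 of 13 (chromosome 11, 101073527 to 101073528). Sdhaf2, an assembly factor of succinate dehydrogenase, had 11 of 11 and 2 of 11 (chromosome 19, 10502850 to 10502851). The DNA ligase gene Lig3 had 1 of 8 and 11 of 12 (chromosome 11, 82783582 to 82783583). Their gaps ran from 75.5 to 81.8 points.

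The X chromosome, which the rule leaves out, gave 3 of 4707 eligible CpGs (0.0637%) against 1.61 expected, a ratio of 1.86 (0.385 to 5.45). All 3 were methylated on the minus strand, and the interval of the ratio includes that of the autosomes. Above the limit of 26 reads, also outside the rule, 6 of 13872 autosomal CpGs (0.0433%) had a gap of 75 points or more.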

How the data were processed

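Bisulfite reads were counted in 1 table for female wild-type epiblast at embryonic day 6.5 (2 samples in the labels, no column per sample, taken as their pool). The deposited values are raw counts of methylated and of unmethylated reads per strand at every CpG. Bismark 0.12.5, cutadapt 1.3, Bowtie2 2.1.0 and the build mm10 are listed in the submitters' processing notes, without saying what each did. How samples were pooled, duplicates handled and reads filtered is not given in the sources used here. Duplicate reads would add counts without adding molecules.

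Strands were paired and the rule applied with Python 3.11.15, numpy 2.4.6, pandas 2.3.3 and scipy 1.17.1. Expected numbers are sums of exact binomial probabilities. They were compared with counts simulated at the same levels, which checks the calculation and not the binomial model. The level was not estimated again from the simulated counts. Genes and starts came from RefSeq tables of GRCm38.p6, and the starts did not cover all genes. All 360715 CG positions of its promoter sequences were CpGs of the table. No flanking sequence was used, since no site lay in those sequences, and the planned comparison of bases beside the CpG was not run because the context column holds only CG. The CpGs and gene lists were chosen with earlier results of these data known. Named sites are 10 with the widest gaps (7 above 87.5 points and, of 9 tied there, the 3 with the most reads), list members (none) and genes with more than 1 site. Others were chosen after their values were seen. Alternatives were other gaps, depth limits, windows, expectations and backgrounds.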

Additional observations from a re-analysis of the deposited data

Results flagged for a closer look

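Above the limit of 26 reads, 6 of 13872 autosomal CpGs with at least 8 reads on each strand (0.0433%) had strand levels 75 or more points apart. These CpGs are outside the rule, and their number exceeds the 3 counts that a count of 0 would allow. Binomial draws gave an expectation of 0.0816, so the ratio was 73.5 (26.99 to 160), compared with 1.74 within the limit. These ratios belong to unlike depths, and binomial draws give such a gap less often at more reads. Within the limit the ratio was 4.50 (0.927 to 13.1) at 24 to 26 reads. The share within the limit was 0.0399%, near the 0.0433% above it. The widest gap was on chromosome 16 (98107534 to 98107535), with 2 of 35 plus and 31 of 31 minus strand reads methylated. The CpGs within 250 bp of it had 35 of 237 plus and 13 of 13 minus strand reads methylated. A site on chromosome 12 (93577147 to 93577148) had 3 of 23 and 14 of 14, with 12 of 76 and 10 of 10 around it. Myo3a, a myosin gene, had 5 of 20 and 8 of 8 (chromosome 2, 22589071 to 22589072), with 38 of 92 and 44 of 49 around it. At these sites the neighbors shared the contrast. On chromosome 2, by contrast, the site at 22205427 to 22205428 had 3 of 22 and 11 of 11 in surroundings at 76.9% and 79.4%. The last pair had 4 of 16 and 11 of 11 on chromosome 7 (136880763 to 136880764), and 9 of 10 and 6 of 43 on chromosome 14 (39496493 to 39496494). Surroundings were at 59.1% and 66.7% on chromosome 7. On chromosome 14 they leaned the other way from the site, at 77.1% and 88.0%.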

How the results depend on the processing

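No paired analysis was possible because the table pools the samples, and for the same reason no replicate could be left out. Of 71 alternative values, 46 stayed within the main interval (for numbers of sites within 1.5 times, for the strand test equal). The ratio to expectation was above 1 in all 10 alternatives, but its interval included 1 in 3 of them (a gap of 90 points, at least 10 reads per strand and chromosome X). It was 1.92 with the methylated total held fixed and 1.88 at the surrounding level. With a gap of 60 points there were 886 sites, the ratio was 1.44 and 3.05% had another site within 1 kb. With 90 points there were 2 sites, 100% of them in genes. At least 10 reads per strand left 3 sites, 100% methylated on the plus strand and 100% in genes, with a density difference (median of other CpGs within 250 bp, sites minus eligible, -5 in the main setting) of -15. At least 6 reads gave 1040 sites, a density difference of -3 and a neighbor difference over 1 to 50 bp of 22.3 points. The density difference was -3 with at most 20 reads, -3 where mean depth within 1 kb was at most 13 reads, -3 in windows of 100 bp, -17 in windows of 1000 bp and 0 against eligible CpGs of like level, a background added after the data were seen. Chromosome X had 3 sites, 0% methylated on the plus strand, 33.3% in genes (60.9% on autosomes), a density difference of -8 and a neighbor difference of 27.1 points. Neighbor differences at over 50 to 200 bp and over 200 to 1000 bp were -1.20 and 0.716 points. Without the limit on the total, 6 CpGs passed Fisher's exact test with adjustment. Apart from backgrounds and windows, fewer or more sites follow from each limit itself, and the cause of the other shifts was not tested. Depth limits single sites, and none of the 128 was called.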

Other observations

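Without the limit on total reads, the 6 CpGs whose strands differed in Fisher's exact test (adjusted p at most 0.05, two-sided, Benjamini-Hochberg) were on 5 chromosomes and outside the genes of the table used. Only the sites on chromosomes 12 and 16 among them had gaps over 75 points. The smallest adjusted p, 1.76e-15, belonged to a CpG near the start of chromosome 9 (3000469 to 3000470), with 18 of 147 plus and 70 of 100 minus strand reads methylated. On chromosome 2, a pair 553 bp apart leaned opposite ways, with 55 of 107 and 126 of 152 at 98662350 and 38 of 74 and 2 of 40 at 98662903. A CpG on chromosome 14 (19416911 to 19416912) had 13 of 19 and 4 of 96. All 6 were far deeper than the median autosomal CpG, which had 6 reads, most of all those on chromosomes 2, 9 and 14. Why these CpGs were so deep was not tested, and their p-values treat all reads as independent.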
